A study of Mus musculus with 3 samples.

Results

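PU.1 binding was examined by ChIP-seq at 7 genes of the interleukin-7 (IL-7) receptor pathway: Il7r, Il2rg, Crlf2, Jak1, Jak3, Stat5a and Stat5b. Peaks were taken where they overlapped the RefSeq span of a gene (its start to its end on mm10, the build GRCm38) or the 20 kb on each side of it by at least 1 bp. All 7 genes were found, among 21887 protein-coding genes on the chromosomes of the peak lists. Their windows held 44 of the 74494 peaks of replicate 2, 3 of the 6169 peaks of replicate 3 and 33 of the 49385 merged intervals. The rule names the genes by pathway and sets no threshold on a measured value, but the genes were picked with earlier results of these data known.

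IL-7 is the cytokine that carries mouse B cell precursors through the pro-B stage. Its receptor pairs the IL-7Rα chain (Il7r) with the common γ chain (Il2rg), which is also part of the receptors for several other interleukins, and the same α chain pairs with Crlf2 to bind TSLP, a related cytokine. Jak1 and Jak3 are the tyrosine kinases attached to the chains of the IL-7 receptor. They phosphorylate Stat5a and Stat5b, closely related transcription factors that then act in the nucleus. PU.1, an ETS-family factor that binds DNA around the core GGAA, has been described as a regulator of Il7r in lymphoid progenitors.

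The cells were i660BM, a C57BL/6 mouse cell line at the pro-B stage with a PU.1 construct that doxycycline switches on, grown in medium with 5% IL-7. Both PU.1 libraries, numbered 2 and 3 in their labels, came from cells given 70 ng/ml doxycycline for 24 h and used the rabbit polyclonal T-21 antibody. The third sample, non-immunoprecipitated input chromatin of the same cell type and strain, labelled as untreated, has no peak list here, and uninduced cells and IgG were not analysed here. Both libraries were thus induced, in 1 cell line, so binding that needs the induction cannot be told apart from binding that does not, and the labels do not say whether the libraries came from separate cultures. Each peak has a score that the authors' peak caller assigned, taken to be the negative log10 of its p-value times 10. It depends on the depth of the library, which was not used here, so scores were ranked only within their own list. The median score was 232 in replicate 2 and 136 in replicate 3, and a score of 3100 is a ceiling that 3.57% of replicate 2 peaks reached or passed. No test between groups exists in this design, and the values below are descriptions.

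Every one of the 7 genes had a replicate 2 peak in its window, as did 84.2% of all protein-coding genes, and every one had a merged interval, as did 76.1%. A replicate 3 peak was present at 2 of the 7 genes, Il7r and Jak1 (28.6%), and at 24.1% of all protein-coding genes. Regions with a peak of each list (shared regions) lay at the same 2 genes, against 24.2%. These shares are near the background and do not set the 7 genes apart as a group. What differed among the genes was the place and strength of their peaks. A replicate 2 score of at least 1000 was reached at Il7r, Crlf2, Jak1 and Stat5b, that is 4 of 7 genes beside 42.4% of all genes. It was not reached at Il2rg, Jak3 or Stat5a. Il7r was the only one of the 7 with a peak at the ceiling, which 12.4% of all genes had in their window.

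**Figure D1:**
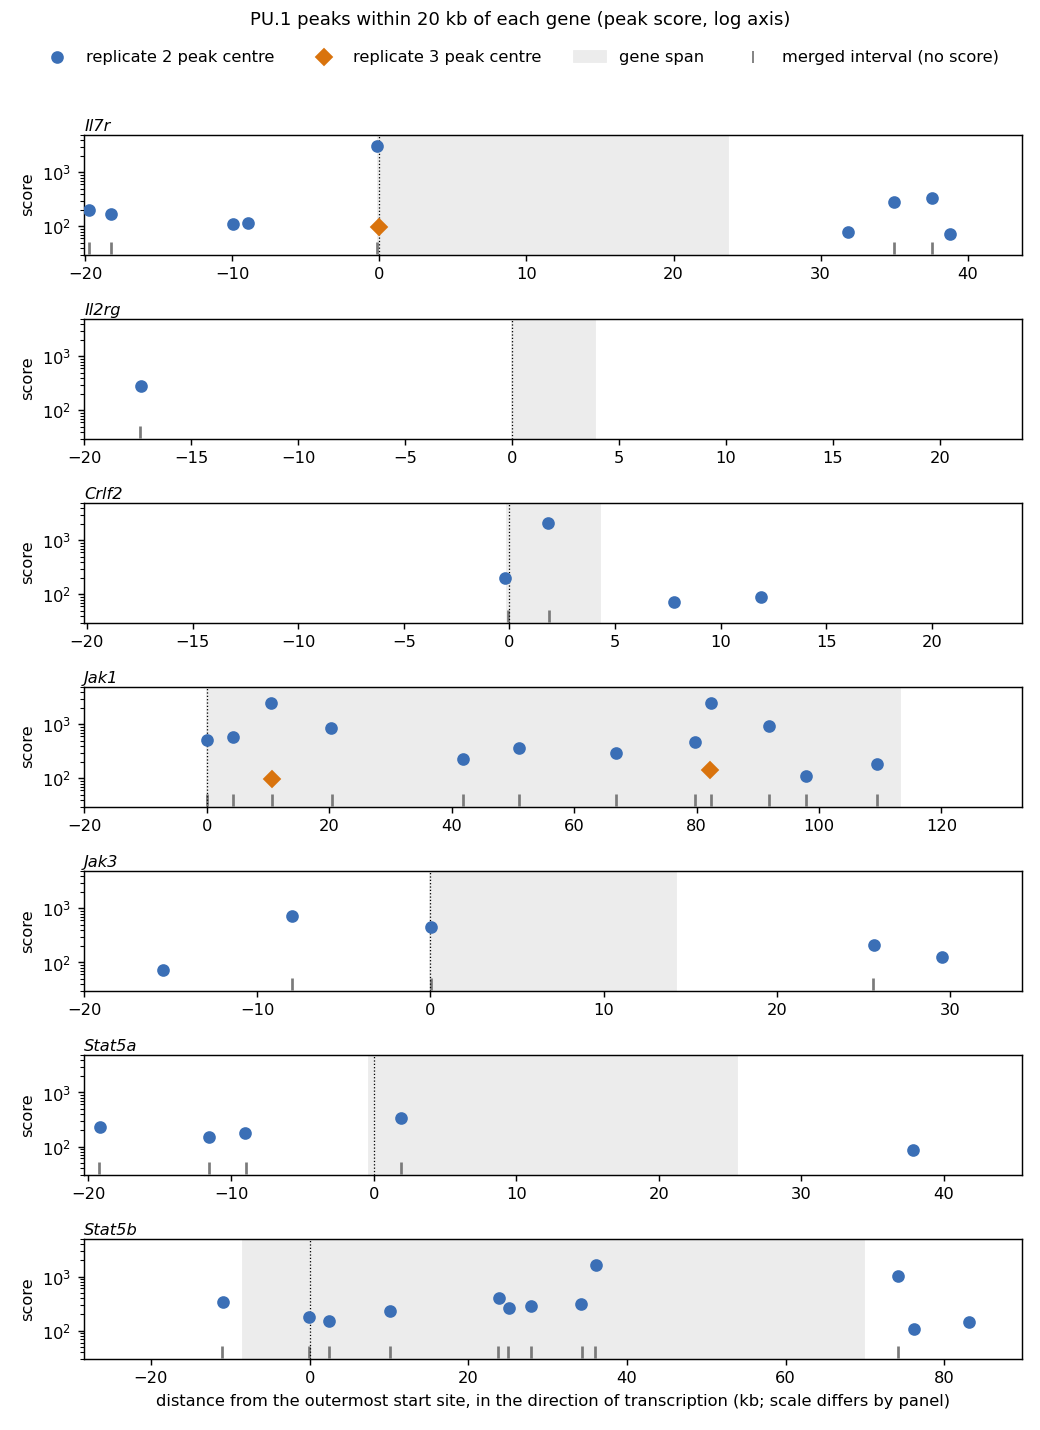
Peak centres by distance in kb from the outermost RefSeq start site (x axis, in the direction of transcription) and by score (y axis, log scale) for each of the 7 genes; circles are replicate 2, diamonds replicate 3, ticks at the bottom merged intervals, and grey the gene span. Il7r has its strongest peak (3100) at the start site and none elsewhere in its span, Jak1 has 12 peaks along its span, and Il2rg has 1 peak, far upstream.

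Of the 44 replicate 2 peaks, 6 overlapped a promoter of the 7 genes, taken as 250 bases before to 50 after a RefSeq start site. A further 19 lay elsewhere inside a span, 7 upstream and 12 downstream. Of the 19 peaks outside every member span, 6 had their centre inside another protein-coding gene. The table of RefSeq promoters gives 9 promoters for the 7 genes, and replicate 2 peaks overlapped 6 of them, against 27.5% of all 32851 promoters. Replicate 3 peaks overlapped 1, that of Il7r, against 2.23% of all promoters. Merged intervals overlapped the same 6, against 23.1%. Promoters of Il7r, Crlf2, Jak1, Jak3 and both of Stat5b were overlapped. Those without a replicate 2 peak were the Il2rg promoter and both Stat5a promoters. The outermost Stat5b start site listed (100850581) lies inside its span, whose 5′ end is at 100859004. No replicate 2 peak lay within 1 kb of that end.

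The receptor genes spanned the whole range, from the strongest peak of the 7 windows to a window with 1 peak of middling score. Il7r lies on the minus strand of chromosome 15 (9506159 to 9529941), and its promoter carried that strongest peak. In replicate 2 (chromosome 15, 9529280 to 9530741) it scored 3100, and its centre lay 0.134 kb before the start site. Replicate 3 had a peak inside it (9529433 to 9530358) with a score of 95.5 and its centre 0.019 kb from the start site. Peaks of replicate 2 that score 3100 or more overlapped 1.49% of all promoters, and those of 1000 or more, which among the 9 promoters also meant Il7r alone, 7.47%. The replicate 3 score was low among regions at the ceiling. Among the 2371 shared regions that scored exactly 3100 in replicate 2, the median replicate 3 score was 265.5, and 69 regions (2.91%) had a lower replicate 3 score than Il7r. Regions tied at a ceiling can differ in strength, so this comparison is not matched for strength. Below the ceiling, shared regions within 10% of a replicate 2 score of 2504 had a median replicate 3 score of 117.

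The rest of the Il7r span held no replicate 2 peak, and the other 8 lay outside it. The 4 upstream peaks had their centres 8.92, 9.97, 18.2 and 19.7 kb before the start site, with scores of 116, 109, 171 and 204.5. The 4 downstream peaks lay 7.67 to 14.6 kb beyond the far end of the gene, with scores of 78.3, 277, 331 and 73.0. No other gene of the RefSeq table overlaps this window, and all 9 peaks were nearest to the Il7r start site. With 14.1 peaks per 100 kb the window was denser in replicate 2 peaks than those of 97.0% of protein-coding genes. The 4 upstream and 4 downstream peaks had no replicate 3 partner, and merged intervals overlapped 5 of the 9.

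The Il7r promoter is printed because it is the promoter with a peak in both lists. Capitals mark each GGAA core on either strand (TTCC where the core is on the opposite strand), and the same holds for all sequences here, which are RefSeq promoters of GRCm38.p6, read 5′ to 3′ on the strand of the gene.
Il7r promoter, chr15:9529827-9530126, minus strand: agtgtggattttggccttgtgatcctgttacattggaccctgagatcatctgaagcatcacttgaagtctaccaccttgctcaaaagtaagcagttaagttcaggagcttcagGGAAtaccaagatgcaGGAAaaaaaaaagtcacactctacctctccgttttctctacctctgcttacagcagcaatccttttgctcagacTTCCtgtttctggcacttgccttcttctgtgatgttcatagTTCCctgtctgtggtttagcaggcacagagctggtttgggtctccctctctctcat

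This promoter held 4 GGAA cores, and the median over all promoters was 3. One of them was part of AGGAAGT, a longer form of the ETS site searched on both strands, which begins 49 bases before the start site (chromosome 15, 9529919 to 9529925, on the strand opposite to the gene). The middle of that match lay 27 bases from the centre of the replicate 3 peak and 88 bases from the centre of the replicate 2 peak. Other GGAA cores of this promoter lay nearer to each centre, at 15 bases for replicate 3 and 1 base for replicate 2. AGGAAGT occurred in 9.35% of all promoters and in 33.1% of the 732 promoters with a replicate 3 peak, and among the 7 genes in Il7r alone. The letters TTCNNNGAA, the form of site that Stat5 binds, also occurred in this promoter (TTCAGGGAA, 142 bases before the start site), where its last bases overlap a GGAA core. They were found in 8.30% of all promoters, in 9.43% of those with a replicate 3 peak and in none of the other promoters of the 7 genes. GAGGAA, the core with purines in front of it, as PU.1 prefers, was not among the letters of this window. It occurred in 28.3% of all promoters and in 49.2% of those with a replicate 3 peak.

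Il2rg (chromosome X, 101264385 to 101268255, minus strand), the gene of the common γ chain, stood at the other end. Its window held 1 replicate 2 peak (101285105 to 101286104, score 288.5), with no replicate 3 partner. The peak began 16.9 kb upstream of the Il2rg span, inside Med12, a Mediator subunit gene, whose start site was nearer at 11.5 kb. The peak density of 2.28 per 100 kb was higher than in 31.8% of protein-coding genes, and the median gene had 4.05. The gap from the Il2rg promoter to the nearest replicate 2 peak was 16600 bp, and the nearest replicate 3 peak lay 183 kb from the gene. Its promoter is shown as the contrast to that of Il7r, since it held 5 GGAA cores, more than Il7r, and no peak of any list.
Il2rg promoter, chrX:101268206-101268505, minus strand: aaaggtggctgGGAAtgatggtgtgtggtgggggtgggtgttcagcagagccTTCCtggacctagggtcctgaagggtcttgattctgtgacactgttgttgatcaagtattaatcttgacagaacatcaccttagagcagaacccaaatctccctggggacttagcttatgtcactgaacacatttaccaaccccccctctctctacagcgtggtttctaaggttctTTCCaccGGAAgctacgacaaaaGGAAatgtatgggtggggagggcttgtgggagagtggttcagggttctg

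Crlf2 (chromosome 5, 109554709 to 109559128, minus strand) encodes the TSLP receptor chain. Its strongest replicate 2 peak lay inside the span (109556413 to 109557933), centred 1.82 kb after the start site, and scored 2069, above 92.6% of the list. No replicate 3 peak overlapped it. Among the 1675 replicate 2 peaks with a score within 10% of this one, 51.8% had a replicate 3 peak. A second, weaker peak covered the promoter (109558605 to 109559828, score 199.83), and the remaining peaks, downstream of the gene, scored 72.05 and 87.7 and were nearer to the start of the lncRNA gene Gm8493. The Crlf2 promoter held GAGGAA 80 bases before its start site, as part of a pair of cores that lie close together. It is printed for this pair.
Crlf2 promoter, chr5:109558944-109559243, minus strand: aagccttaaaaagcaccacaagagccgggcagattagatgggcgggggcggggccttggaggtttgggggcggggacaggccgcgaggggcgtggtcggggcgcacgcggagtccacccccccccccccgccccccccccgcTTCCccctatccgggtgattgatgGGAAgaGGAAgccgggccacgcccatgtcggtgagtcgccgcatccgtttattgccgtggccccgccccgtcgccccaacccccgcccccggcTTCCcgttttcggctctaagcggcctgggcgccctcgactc

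The kinase genes differed in where their peaks lay. Jak1 (chromosome 4, 101151974 to 101265282, minus strand) had 12 replicate 2 peaks, all of them overlapping its 113 kb span, and all 12 had a merged interval. The strongest lay 82.3 kb after the start site (101182279 to 101183468) and 10.5 kb after it (101253759 to 101255614), with replicate 2 scores of 2509 and 2504. Each had a replicate 3 peak, with scores of 143 and 98.7. In this gene the replicate 3 values were ordinary for their replicate 2 scores. Of the shared regions with a replicate 2 score within 10% of each, 71.3% had a replicate 3 score below the first and 31.4% below the second, and the medians were 118 and 117. The RefSeq table used here does not separate exons from introns, so the peaks are placed only as inside the gene.

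The promoter peak of Jak1 (101264580 to 101265896) was centred 0.015 kb from the start site and scored 506, with no replicate 3 partner. The other 9 Jak1 peaks scored from 110 to 944. At 7.83 peaks per 100 kb, Jak1 was denser than 79.8% of genes, and its best score was above that of 82.3% of genes. The share for the best score is not matched for window length, which was 153.3 kb at Jak1 and 57.2 kb at the median gene. The promoter peak of Jak1 was thus weaker than the strongest peaks inside the gene. The same held for Crlf2 and Stat5b, while Il7r had its strongest peak at the start site. The Jak1 promoter held 1 GGAA core and none of the longer forms searched.
Jak1 promoter, chr4:101265174-101265473, minus strand: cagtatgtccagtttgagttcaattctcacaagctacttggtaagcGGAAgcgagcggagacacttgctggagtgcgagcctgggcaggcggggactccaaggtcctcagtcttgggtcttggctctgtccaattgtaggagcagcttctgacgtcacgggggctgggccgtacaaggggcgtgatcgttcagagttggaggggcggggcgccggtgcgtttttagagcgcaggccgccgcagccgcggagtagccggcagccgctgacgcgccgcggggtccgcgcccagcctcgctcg

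Jak3 (chromosome 8, 71676383 to 71690577, plus strand), which binds the common γ chain, had 5 replicate 2 peaks and none in replicate 3. The promoter peak (71675558 to 71677229) was centred 0.01 kb from the start site and scored 457. The highest score, 719, belonged to a peak 7.44 kb upstream of the span (71667811 to 71668944) that lay inside Unc13a, a synaptic gene, and was nearest to the Unc13a start site at 3.38 kb. The peaks downstream scored 212 and 125 and were nearest to B3gnt3, and a further peak inside Unc13a scored 73.6. Thus 1 of the 5 peaks was nearest to the start site of Jak3 itself. The span of Jak3 beyond its promoter held none.

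Stat5b and Stat5a lie head to head on chromosome 11, with Stat5b (100780731 to 100859004) on the minus strand and Stat5a (100859351 to 100885169) on the plus strand. Their windows overlap, and 4 replicate 2 peaks fell in both. The Stat5b window held 12 replicate 2 peaks and the Stat5a window 5. Neither held a replicate 3 peak. The stronger peaks lay in the Stat5b window. The strongest lay inside the Stat5b span (100813905 to 100815166) with a score of 1605, and another 3.47 kb beyond the far end of the gene (100775563 to 100777263) scored 1031. The latter was nearest to the start site of Ghdc, at 5.46 kb. In this window 8 of the 12 peaks were nearest to a Stat5b start site. Among replicate 2 peaks within 10% of the scores 1605 and 1031, 24.1% and 2.80% had a replicate 3 peak. The Stat5b promoter peaks were weaker, at 181 for the outer promoter and 286 for the inner one.

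Stat5a had 1 replicate 2 peak inside its span (100861035 to 100862071, score 337), which starts 502 bp after the end of its inner promoter window. Further peaks of its window lay inside Stat5b, with scores of 232, 152 and 181, and the last, inside the neighbouring Stat3, scored 86.8. The best score near Stat5a exceeded that of 35.5% of protein-coding genes, and the best near Stat5b that of 70.4%. Their windows were 65.8 and 118.3 kb long, beside a median of 57.2 kb over all genes. These shares are not matched for window length.

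The inner promoters of both Stat5 genes were alike in sequence, and this pair had the longest match among the 36 pairs that the 9 promoters form. The best ungapped match covered 65 bases, of which 58 were identical (89.2%). In the next best pair 18 of 21 bases were identical. The stretches are printed because a peak covered one copy and not the other. The Stat5b copy lay inside a replicate 2 peak (100822139 to 100823129, score 286), and the Stat5a copy was 553 bp from the nearest one.
Stat5b inner promoter stretch, chr11:100822563-100822627, minus strand: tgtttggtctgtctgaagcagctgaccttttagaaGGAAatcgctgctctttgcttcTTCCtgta
Stat5a inner promoter stretch, chr11:100860418-100860482, plus strand: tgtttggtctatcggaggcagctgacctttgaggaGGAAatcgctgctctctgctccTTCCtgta
Both copies held a GGAA core and, further on, a TTCC, and in the Stat5a copy the first core was part of GAGGAA. How reads that match both copies were placed is not stated in the labels, and its part in this difference was not tested.

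Replicate 3 peaks were found at the members' strongest replicate 2 peaks. In all, 6 of the 44 replicate 2 peaks scored at least 1000. The 3 highest, at Il7r (3100) and Jak1 (2509 and 2504), each had a replicate 3 peak, and those at Crlf2 (2069) and Stat5b (1605 and 1031) did not. None of the other 38 had one. Over the whole replicate 2 list the share with a replicate 3 peak rose in the same range of scores, from 2.80% near 1031 to 95.3% within 10% of 3100. Near the scores of the strongest Crlf2 and Stat5b peaks, 51.8% and 24.1% of replicate 2 peaks had one, so lacking one was common at such scores. Why these peaks lacked one was not tested.

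**Figure D2:**
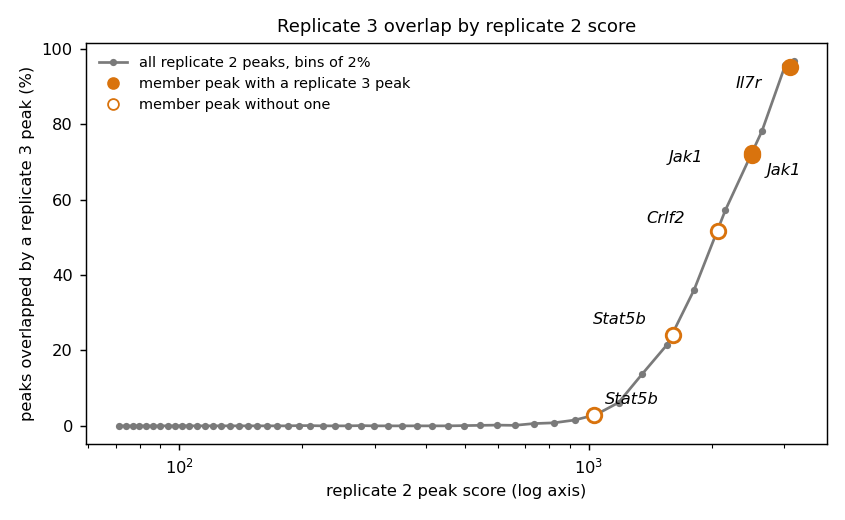
Share of replicate 2 peaks overlapped by a replicate 3 peak (y axis, %) against replicate 2 score (x axis, log scale), in bins of 2% of the list (grey), with the 6 member peaks of score 1000 or more placed at the share among peaks within 10% of their own score. Filled circles had a replicate 3 peak (Il7r and both Jak1 peaks) and open circles did not (Crlf2 and both Stat5b peaks).

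Merged intervals overlapped 33 of the 44 replicate 2 peaks. Those not overlapped scored from 72.05 to 144, and those overlapped from 110 to 3100. The 11 peaks without a merged interval were weak flanking ones, 4 of them around Il7r, 2 at Crlf2 and none at Jak1. In 3 of the 33 merged intervals, both ends were those of a replicate 2 peak, among them the Il7r promoter interval.

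Peak density gave another order of the genes than peak strength. All windows but that of Il2rg lay above the median of 4.05 replicate 2 peaks per 100 kb over all protein-coding genes. The order was Il7r (14.1), Stat5b (10.1), Jak3 (9.23), Crlf2 (9.0), Jak1 (7.83), Stat5a (7.60) and Il2rg (2.28). The windows of Jak3 and Stat5a thus had densities close to those of Crlf2 and Jak1 while lacking a peak of score 1000. Peaks nearest to the gene's own start site were 1 of 5 at Jak3 and 2 of 5 at Stat5a. They were 2 of 4 at Crlf2 and 11 of 12 at Jak1, and 4 peaks count in both Stat5 windows. The density has no replicate in this design, since replicate 3 had 3 peaks in all windows together, so no neighbours in that order can be called different. It also counts weak and strong peaks alike. A merged interval overlapped 5 of the 9 replicate 2 peaks at Il7r, 2 of 4 at Crlf2 and 3 of 5 at Jak3. At Jak1 all 12 were overlapped, at Stat5b 10 of 12, at Stat5a 4 of 5 and at Il2rg its 1 peak. The order thus rests in part on weak peaks.

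**Figure D3:**
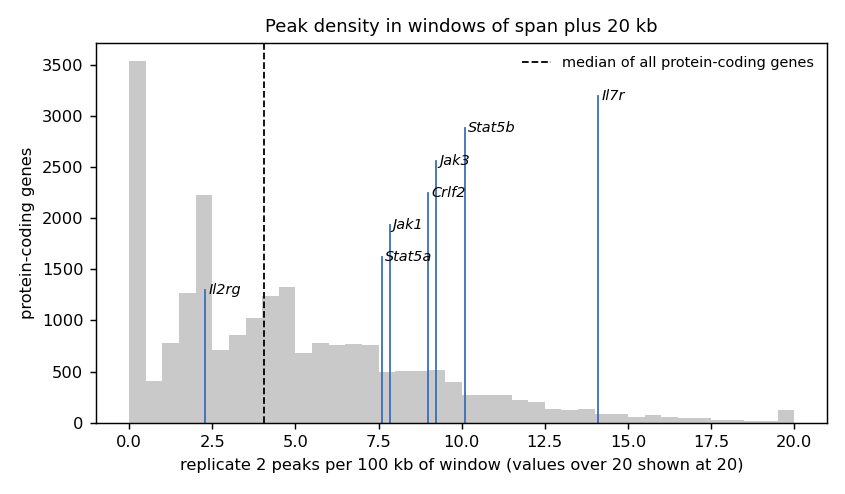
Number of protein-coding genes (y axis) by replicate 2 peaks per 100 kb of window (x axis), with the 7 genes as blue lines, whose heights carry no meaning, and the median of all genes dashed at 4.05. All but Il2rg lie to the right of the median, and Il7r is farthest at 14.1.

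Other genes of the pathway were taken from a list of 41 in 6 roles. All 41 had a replicate 2 peak within 20 kb of the span, 40 a merged interval and 20 a replicate 3 peak (48.8%, beside 24.1% of all protein-coding genes and 28.6% of the 7 genes above). The median window was 67.2 kb in this list and 57.2 kb over all genes, and wider windows hold more peaks. The list includes B cell factors known from earlier results of these data to carry strong peaks, so its share supports no statement about the pathway.

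The roles held few genes each, so their counts are not ranked here. Replicate 3 peaks were found at 6 of 8 inhibitors, beside 24.1% of all protein-coding genes. They were led by Sh2b3, an adaptor that restrains cytokine signalling, with a highest replicate 3 score of 787, and by Socs3 and Socs2, feedback inhibitors of Jak kinases, with 227 and 145. Targets and downstream genes had them in 7 of 13, led by Ebf1, a B-lineage factor (1061), Mcl1 (474) and Bcl2 (385), which are survival genes. Of the 6 other receptor chains of the common γ chain family, 3 had one. These were Il2ra, with 357, and the neighbouring Il4ra and Il21r, which have the same highest score of 536 through 1 peak that lies in both windows.

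Among ligands, Il7 itself had a replicate 3 peak with a score of 82.4 and Il21 one of 72.9, while the best peak at Tslp scored 1923 in replicate 2 alone. Of the other Stats, Stat2 (124) and Stat6 (82.4) had replicate 3 peaks, and Stat4 had a best replicate 2 score of 1241 without one. The other Jak kinases, Jak2 and Tyk2, had none and best replicate 2 scores of 326 and 965. Jak1 was thus the only one of the 4 Jak genes with a replicate 3 peak in its window. That window was 153.3 kb long, beside 54.2 kb for Jak3, and wider windows hold more peaks.

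**Figure D4:**
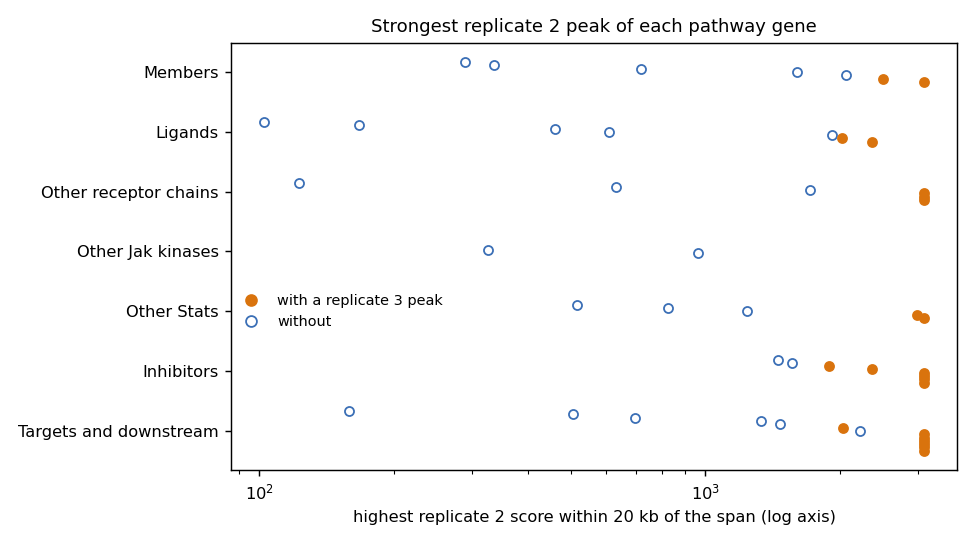
Highest replicate 2 score within 20 kb of the span (x axis, log scale) for the 7 genes and the 41 further pathway genes by role (rows), 1 circle per gene, filled where the window also holds a replicate 3 peak. The filled circles sit at the right, with 2 of 7 members, 6 of 8 inhibitors and none of the other Jak kinases filled.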

How the data were processed

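PU.1 ChIP-seq peak lists of 2 libraries of induced i660BM cells and a merged list of intervals were used. The submitters' processing notes name Trim Galore, Bowtie and MACS 1.4.1 as tools and mm10 as the build. The deposited score of each peak comes from the authors' peak caller, carries no normalization between libraries, and is 0 throughout the merged list, which was used for positions alone. Neither the making of the merged list nor the use of the input as control is given in the sources used here.

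Positions were made 1-based. Spans came from a RefSeq table of GRCm38.p6, and start sites, strands and promoter sequences from RefSeq promoters of the same build. Shared regions are joined intervals holding a peak of each list. Overlaps were computed with Python 3.11.15 and pandas 2.3.3, and the code was tested on simulated intervals. Motifs were exact letters on both strands. The members and lists were chosen with earlier results of these data known. All 7 members are described; of the pathway list, up to 3 genes per role are named, by replicate 3 and then replicate 2 score. Alternatives were windows of 5 and 50 kb, peak centres, scores of at least 100, reciprocal overlap of 50%, and either list alone. For promoters, the alternative was 1 kb each side of the 5′ end of the span.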

Additional observations from a re-analysis of the deposited data

How the results depend on the processing

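Of 41 alternative values for 12 counts, 30 stayed within 1.5 times the reported count. With windows of 50 kb, members with a replicate 3 peak, and with a shared region, numbered 4 in place of 2, and both replicate 3 peaks and shared regions in the windows numbered 8 in place of 3. With scores of at least 100, members with a replicate 3 peak, and with a shared region, fell to 1, Jak1, and both the peaks and the shared regions to 1. The Il7r promoter peak, at 95.5 in replicate 3, is lost under this setting. With windows of 5 kb, replicate 2 peaks numbered 27 in place of 44. Taking 1 kb each side of the 5′ end of the span as promoter, members overlapped by replicate 2 peaks numbered 4 in place of 5. Merged intervals gave the same numbers, and replicate 3 stayed at 1. Leaving out a library, members with a region ranged from 2 (replicate 3 list alone) to 7 (replicate 2 list alone), and regions from 3 to 44. The share of all protein-coding genes with a replicate 3 peak was 15.1% at 5 kb and 37.7% at 50 kb, beside 28.6% and 57.1% of members. No paired analysis was possible because no test compares groups and the input has no peak list. The short replicate 3 list, with 3 member peaks, limits what could be compared.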

Other observations

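Between 20 and 50 kb from the spans, replicate 3 held 5 further peaks, outside the windows described above. Around Il7r there were 2, and both scored higher in replicate 2 than any flanking peak within 20 kb. One lay inside the neighbouring gene Capsl, 41.9 kb beyond the far end of Il7r (chromosome 15, 9463201 to 9464261), with scores of 3100 in replicate 2 and 194 in replicate 3. Its replicate 3 score is above the 95.5 of the Il7r promoter. The other lay 41.6 kb upstream of the span, in no annotated gene (chromosome 15, 9571542 to 9572541; 1907 and 82.9), and the nearest start site was that of Il7r.

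Upstream of Crlf2, at 35.3 kb, a replicate 3 peak of score 73.9 (1696 in replicate 2) lay inside the pseudogene Vmn2r-ps23. Upstream of Jak1, at 26.5 kb, one of score 91.7 (1678 in replicate 2) lay inside Gm12796. Beyond the far end of Stat5b, at 44.1 kb, one of score 75.4 (1743 in replicate 2) lay inside Rab5c, whose start site was 2.01 kb away. These distances were looked at after the values within 20 kb were known.

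The Il7r promoter is a place to look at again in the reads. Its replicate 2 score is at the ceiling, and only 69 of the 2371 shared regions at that same ceiling have a lower replicate 3 score. Regions tied at the ceiling can differ in strength, so the score alone cannot show whether this value is unusual for a site of its strength.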
